A study of Bos taurus with 9 samples.

Results

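The comparison described here sets bovine oocytes exposed to microplastics against control oocytes arrested in the second meiotic metaphase, where mature eggs await sperm. It takes all libraries that the labels assign to these groups, 3 control and 3 microplastics libraries, which are 6 of the 9 libraries of the series. The other 3 libraries, from oocytes given microplastics and taurine, are not part of the comparison. They entered the filter on low counts, the scaling factors and the estimate of the spread between libraries. Both groups are female germ cells of Bos taurus, named M II oocyte in the labels. The labels give no breed, donor age, particle type, dose, exposure time or number of oocytes per library, and they name no batch. Nothing in them ties libraries of 1 group to different cows or maturation cultures. The p-values therefore reflect the scatter among these libraries alone, which may be technical.

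A fully grown oocyte makes almost no new RNA. It lives on transcripts stored during growth, which it translates, masks, deadenylates and destroys on a set schedule as meiosis resumes and the embryonic genome is later switched on. The proteins it will need for the spindle, for fertilization and for the first cleavages are made from this store.

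Libraries held 21.169 to 22.744 M estimated reads, and 13206 genes had enough reads to be tested. Levels are CPM, read counts scaled to library total and TMM factor, which assumes that most genes do not change, and differences are log2 of microplastics over control with their standard error. Along principal component 1 (46.2% of variance) the microplastics libraries lay at 44.7 to 60.8, controls 1 and 2 at -57.0 and -50.6, and control 3 at -4.86, among 2 of the taurine libraries at -3.36 and 7.05. Taurine 3 lay with the controls at -51.0. The correlation over genes was 0.976 between control 3 and each of the first 2 taurine libraries, and 0.962 and 0.964 between control 3 and its own group. For taurine 3 it reached 0.977 with control 2, and was 0.951 and 0.962 within the taurine group. Whether control 3 and taurine 3 were exchanged was not tested, and the labels cannot settle it. For this reason the counts of each list without control 3 stand beside the main ones. The median SD of log2 CPM was 0.335 over the 3 control libraries, 0.209 over controls 1 and 2, and 0.234 over the microplastics libraries. Summed over 15 defining oocyte markers, control libraries reached 94530 to 123400 CPM and microplastics libraries 42070 to 50350 CPM, with 7 of 15 tested members lower and 2 higher. Much of this sum was 1 gene, BTG4, at 48650 to 66080 CPM in control and 16760 to 23020 CPM with microplastics. Markers of cumulus and granulosa cells, the somatic cells around the oocyte, summed to 512 to 616 CPM in control and 421 to 523 CPM with microplastics, with 5 of 13 tested members lower, 0 higher and FSHR at 0 reads in all 6 libraries. Blood markers summed to 19.5 to 31.4 CPM against 9.66 to 12.6 CPM, with 2 of 4 tested lower and CD14 at 0. Markers of theca, stroma and endothelium summed to 39.8 to 45.6 CPM against 33.8 to 44.1 CPM, with 0 of 4 changed, and sperm markers to at most 0.390 CPM in every library. The part of other cells in the results below was not tested.

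With microplastics, 1278 of 13206 genes rose (9.68%) and 1935 fell (14.7%), together 24.3% of those tested, by edgeR's quasi-likelihood test at an adjusted p under 0.05. Changes were mostly moderate. Among the genes that rose 603 changed by less than 1 on the log2 scale, 623 by 1 to 2, 41 by 2 to 3 and 11 by more, and among those that fell the counts were 790, 937, 156 and 52. The 3 control and 3 microplastics libraries did not overlap for 5936 of the tested genes (44.9%), among them 3163 of the called genes. Lack of overlap was also a condition for naming most genes below. Of the 3213 calls, 1399 held whichever of the 6 libraries was left out, 380 of them higher and 1019 lower. Without control 3 the test called 2022 genes higher (15%) and 2129 lower (15.8%), and 2975 of the 3213 were called the same way. Leaving out both control 3 and taurine 3 gave 2613 higher (19.5%) and 2497 lower (18.6%). The median difference over all genes was 0.04 with TMM scaling and 0.52 with scaling by library size only, under which 4004 genes were called higher and 876 lower (30.3% and 6.63% of genes tested). Below, each list is therefore placed against the median of all genes, and brackets after its counts give, in the order higher and lower, those with library size only and without control 3. Counts of a list are to be read against the 9.68% of all genes that rose and the 14.7% that fell. Those with library size only are to be read against 30.3% and 6.63%, and those without control 3 against 15% and 15.8%. Since these are bulk libraries, fewer transcripts per oocyte and fewer oocytes that carry them cannot be told apart.

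The direction of change followed how abundant a transcript was. Of the 119 genes at a mean level of 1000 CPM and over, 76 fell and 2 rose, and their median lay -0.80 from that of all genes. Between 100 and 1000 CPM, 647 of 1707 fell and 94 rose, with a median of -0.39. At 10 to 100 CPM, 815 of 5045 fell and 743 rose, and at 1 to 10 CPM, 340 of 4656 fell and 406 rose. Below 1 CPM, where few reads stand behind each value, 57 of 1679 fell and 33 rose. With library size only the most abundant class still held 42 lower and 7 higher genes, while between 100 and 1000 CPM 466 were higher and 328 lower. The medians less all genes were then -0.79 and -0.39. Without control 3 the counts of the most abundant class were 84 lower and 3 higher.

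**Figure D1:**
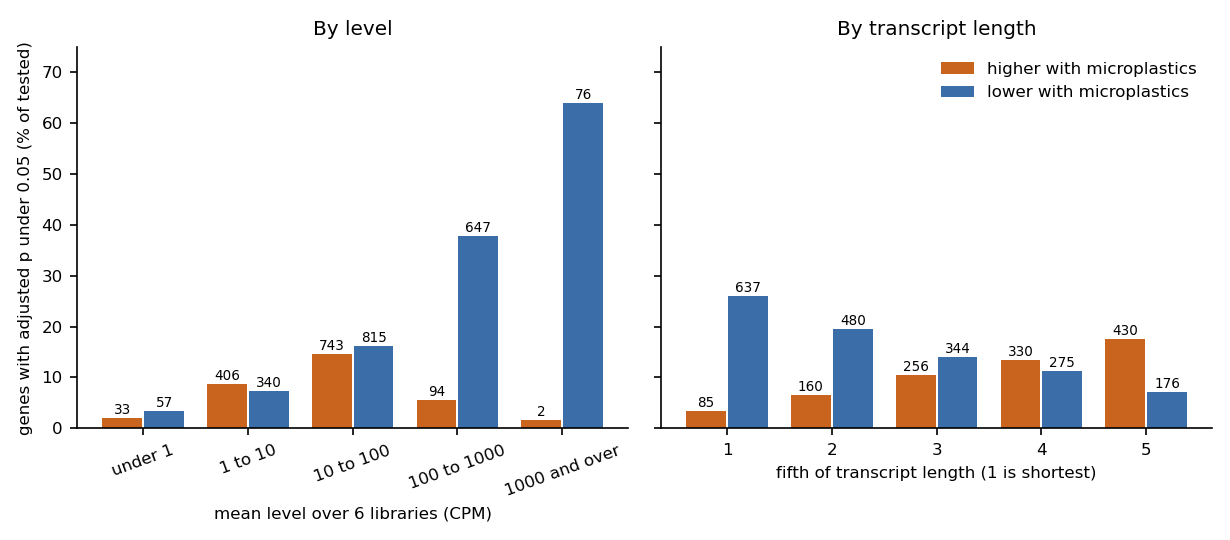
Share of tested genes that rose or fell with microplastics (bars start at 0, numbers above bars are genes), by mean level over the 6 libraries (left) and by quintile of transcript length (right). Among genes of 1000 CPM and over 63.9% were lower and 1.68% higher, and in the quintile of longest transcripts 17.6% were higher and 7.20% lower.

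Transcript length sorted the genes as well. Lengths were taken from the ratio of deposited counts to FPKM and were known for 92.5% of tested genes. In the shortest quintile, with a median of 735 nt, 637 of 2443 genes fell and 85 rose, and in the longest quintile, with a median of 4813 nt, 176 fell and 430 rose. Genes that fell had a median length of 1454 nt and a median level of 55.0 CPM. Genes that rose had a median length of 2842 nt and a median level of 17.0 CPM, against 1994 nt and 7.55 CPM for genes without a call. Level and length each went with the direction within classes of the other. At 100 to 1000 CPM, 208 of 401 genes of the shortest quintile fell and 8 rose, and in the longest quintile 40 of 280 fell and 34 rose. At 10 to 100 CPM, 263 of 845 short genes fell and 46 rose, while 94 of 1307 long genes fell and 289 rose. After a smooth trend on length had been removed from each library, 1052 genes (7.97%) were called higher and 1847 (14%) lower, and 66 genes of 1000 CPM and over were lower and 2 higher.

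Reads were accordingly spread over more genes in the exposed oocytes. In control libraries 255, 272 and 339 genes held 50 percent of all reads, and with microplastics 498, 449 and 522 did. The 10 most abundant genes took 16.3%, 15.7% and 14.4% of reads in control and 11.2%, 11.1% and 9.68% with microplastics. Control 3 lay nearest to the microplastics libraries in both measures, without overlap. At least 10 reads were found for 12396, 12458 and 12610 genes in control and 13036, 13194 and 12870 genes with microplastics. Genes of 1000 CPM and over took 37.5% ± 2.07 of reads in control and 29.3% ± 1.38 with microplastics (SD, n = 3), a set chosen on the mean over both groups. With 3 libraries against 3, the exact two-sided permutation test cannot go below p = 0.1, the value each of these measures gave (0.11 after adjustment over 18 measures of read shares), so none can pass 0.05.

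**Figure D2:**
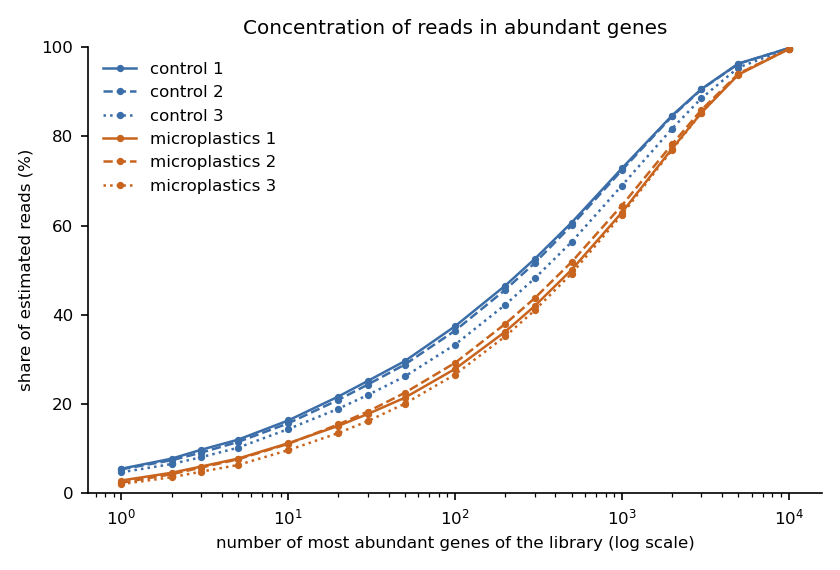
Cumulative share of estimated reads (%) held by the most abundant genes of each library (log scale), with control libraries in blue and microplastics libraries in orange. The 1000 most abundant genes held 69.0% to 72.8% of reads in control and 62.4% to 64.5% with microplastics, and control 3 runs between controls 1 and 2 and the microplastics libraries.

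The genes with the largest difference in CPM show what stands behind these shares. The 6 largest falls were those of BTG4, TMSB4X, OOSP2, ID3, ZP2 and CCNB1. BTG4, an adaptor that brings the CCR4-NOT deadenylase to maternal mRNA, was at 66079, 63497 and 48654 CPM in control and 23017, 19593 and 16762 CPM with microplastics (log2 -1.59 ± 0.19, adjusted p = 0.000203). OOSP2, an oocyte secreted protein, was at 12716, 10075 and 11336 CPM in control and 6205, 4791 and 4419 CPM with microplastics (log2 -1.15 ± 0.19, adjusted p = 0.00149). CCNB1, the cyclin B1 whose synthesis and destruction drive the meiotic divisions, was at 10483, 9914 and 6457 CPM in control and 3729, 4428 and 3673 CPM with microplastics (log2 -1.18 ± 0.24, adjusted p = 0.00465). All microplastics libraries lay below all control libraries in these 3 genes, and control 3 was the lowest control for BTG4 and CCNB1. ZP2, a protein of the zona pellucida, changed by log2 -1.11 but lost its call without microplastics 1 (-0.99) or microplastics 3 (-1.09).

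The calls of TMSB4X, the actin monomer binder thymosin beta 4 (log2 -0.73), and of ID3, an inhibitor of basic helix-loop-helix factors (log2 -0.87), rested on single libraries and on scaling. TMSB4X lost its call without control 1 (-0.61) or microplastics 3 (-0.63), with library size only (-0.24) and with the length trend removed (-0.18). ID3 lost it without control 1 (-0.77), control 2 (-0.79), microplastics 1 (-0.83) or microplastics 3 (-0.73), with library size only (-0.37) and with the length trend removed (-0.55). Of the 6 largest gains, TUBA1C, an alpha tubulin, was at 955, 956 and 908 CPM in control and 1339, 1746 and 1450 CPM with microplastics (log2 0.69 ± 0.15, adjusted p = 0.00809). GDI2, which recycles RAB GTPases, was at 382, 412 and 568 CPM in control and 767, 812 and 924 CPM with microplastics (log2 0.88 ± 0.20, adjusted p = 0.00779). HSPA8, the constitutive HSP70 chaperone, was at 420.0, 396 and 409 CPM in control and 703, 829 and 759 CPM with microplastics (log2 0.90 ± 0.16, adjusted p = 0.00185). The groups did not overlap in any of the 3, as in 44.9% of all tested genes. Tubulins and HSP70 genes have close copies, between which reads may be shared.

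The other 3 of the largest gains depended on single libraries. PCBP1, a poly(C) binding protein, had a log2 difference of 0.71 and lost its call without control 1 (0.73), control 2 (0.73), microplastics 1 (0.56) or microplastics 2 (0.72). H1-1, a linker histone, had 0.87 and lost it without control 1 (0.75) or microplastics 2 (0.69). ANKRD17, an ankyrin repeat protein, had 1.00 and lost it without control 1 (0.84), control 2 (0.89), microplastics 1 (1.05) or microplastics 3 (0.87) and with the length trend removed (0.67). Of the 76 gene lists described, 37 had a median above that of all genes, 8 by 0.3 or more, and 14 lay 0.3 or more below it. In 45 lists more members fell than rose with TMM scaling and in 26 more rose than fell. Without control 3, 38 of the 45 still had more falls, but with library size only 3 did, cytosolic ribosomal proteins, complex I and cumulus and granulosa genes, so counts of falls below are relative to TMM scaling.

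**Figure D3:**
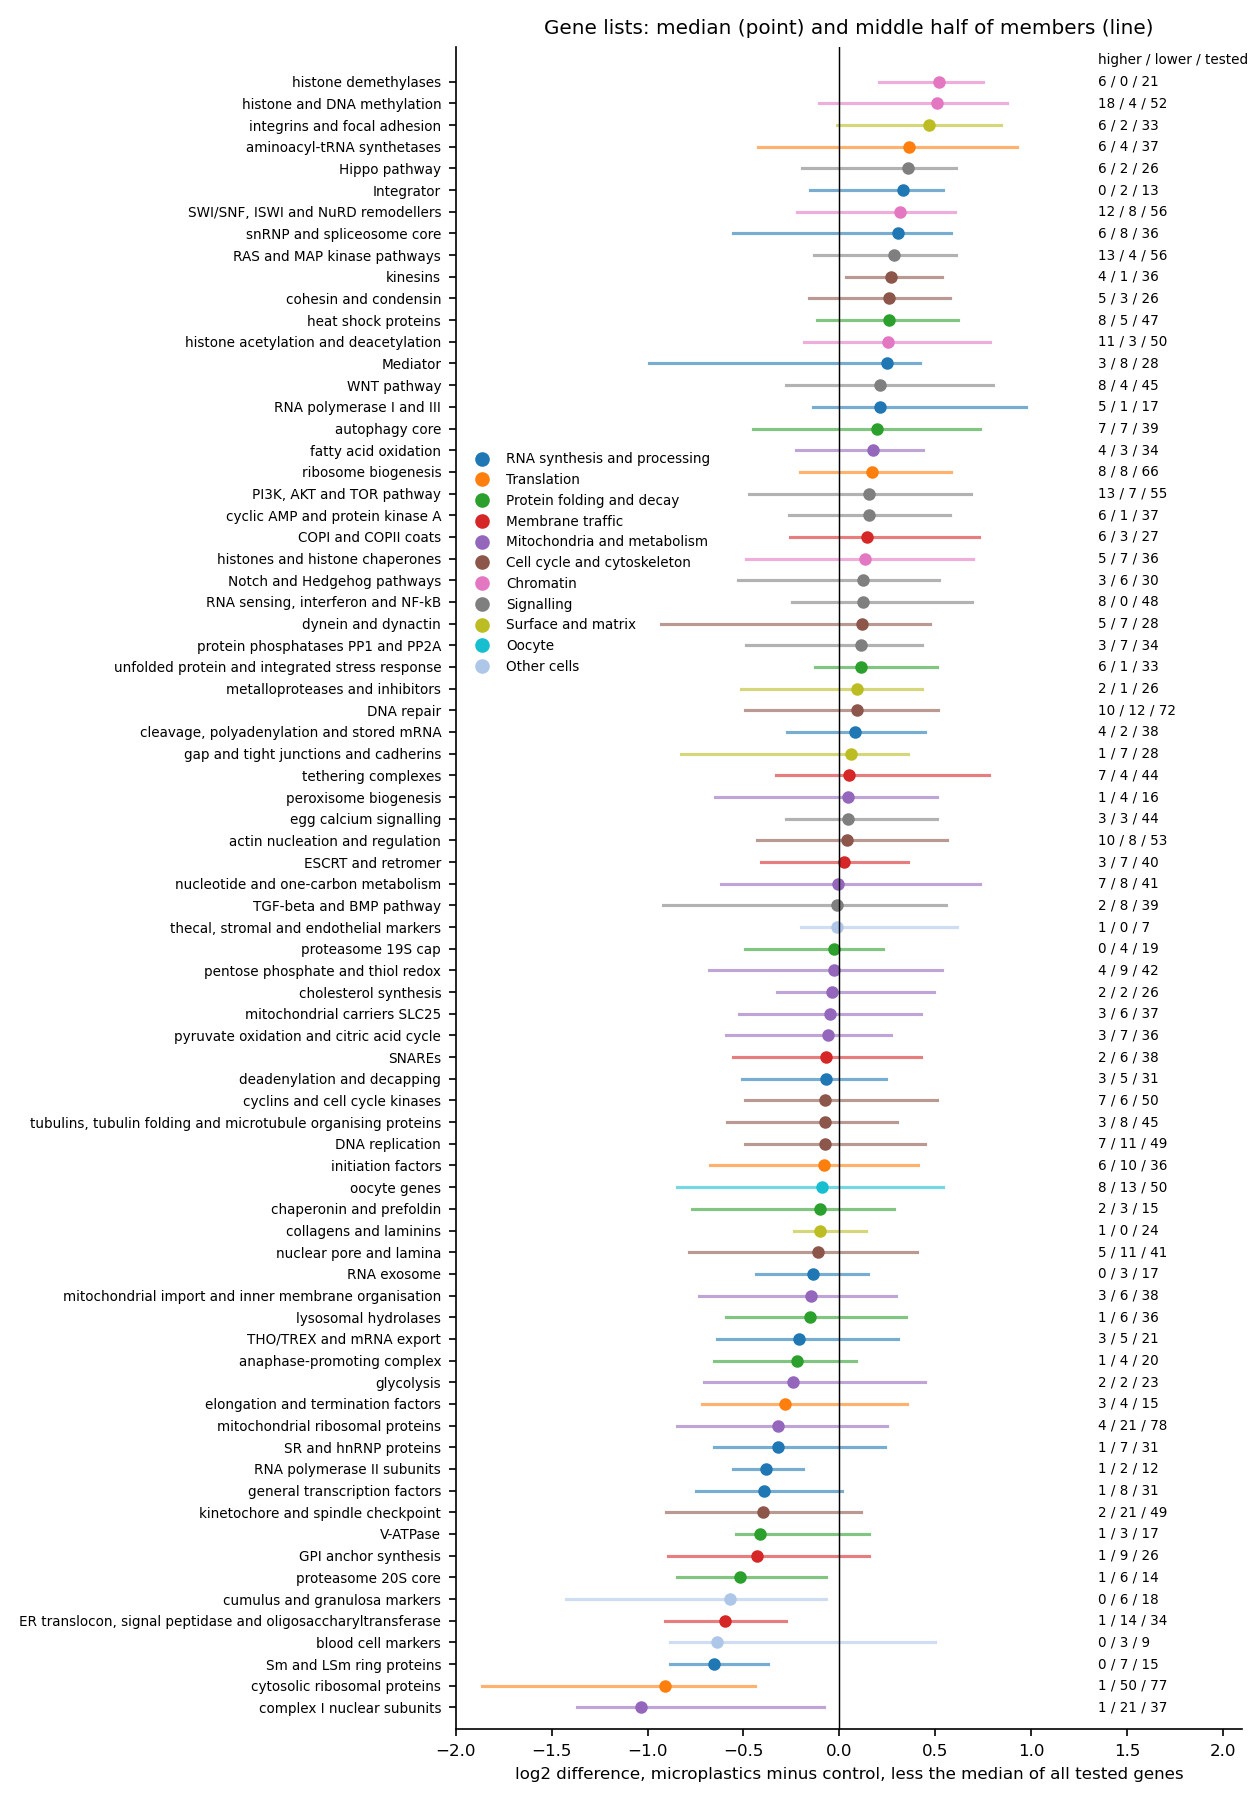
Median log2 difference of each gene list less the median of all tested genes (points), with the middle 50 percent of members (lines) and the counts higher, lower and tested at the right. Nuclear subunits of complex I lie lowest at -1.03 and histone demethylases highest at 0.52.

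In the machinery of transcription, more basal factors fell than rose with TMM scaling, and most members were not called. Of 31 general transcription factors, which place RNA polymerase II on promoters, 8 fell and 1 rose (median less all genes -0.40, 2 and 10 without control 3). With library size only 5 were higher and 4 lower, at a median less all genes of -0.39. CDK7, the kinase of TFIIH that also activates cell cycle kinases, was at 1044, 1008 and 831 CPM in control and 396, 422 and 396 CPM with microplastics (log2 -1.25 ± 0.16, adjusted p = 0.000257). GTF2A2, the small subunit of TFIIA, was at 950.3, 944 and 824 CPM in control and 418, 396 and 471 CPM with microplastics (log2 -1.08 ± 0.14, adjusted p = 0.000412). In both genes the highest microplastics value lay below the lowest control, which was control 3. RNA polymerase II itself had 1 subunit higher and 2 lower of 12 at a median of -0.38 (2 and 1 with library size only, 2 and 3 without control 3), and none of these calls held with each library left out in turn.

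Mediator, the bridge between activators and the polymerase, was split. It had 3 members higher and 8 lower of 28, around a median of 0.25 (4 and 9 without control 3). MED30 was at 168, 165 and 166 CPM in control and 51.3, 45.8 and 53.3 CPM with microplastics (log2 -1.73 ± 0.16, adjusted p = 3.32e-05). MED6 was at 417, 254 and 267 CPM in control and 81.4, 76.8 and 87.2 CPM with microplastics (log2 -1.93 ± 0.21, adjusted p = 0.000104). MED15, a tail subunit bound by activators, was at 58.4, 76.95 and 69.98 CPM in control and 167, 123 and 105 CPM with microplastics (log2 0.94 ± 0.21, adjusted p = 0.0079). The members that fell had a median transcript length of 793 nt and those that rose 2628 nt. MED29 was at 131, 48.4 and 40.9 CPM in control and 11.1, 9.71 and 11.4 CPM with microplastics (log2 -2.77 ± 0.39, adjusted p = 0.000576), with control 1 far above controls 2 and 3. With library size only, 12 members were higher and 5 lower. Subunits of RNA polymerases I and III, which make ribosomal and transfer RNA, had 5 members higher and 1 lower of 17 (8 and 0 with library size only, 7 and 1 without control 3), among them POLR3D at 27.7, 27.4 and 33.6 CPM in control and 74.8, 56.8 and 65.5 CPM with microplastics (log2 1.15 ± 0.19, adjusted p = 0.00139).

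Splicing factors were called in both directions. The small ring proteins of the Sm and LSm families, which encircle spliceosomal RNA, had 7 of 15 lower and 0 higher at a median of -0.65 (0 and 8 without control 3), but this median became -0.02 with the length trend removed, and library size only left 1 lower and 1 higher. Over the larger core proteins of the spliceosome 6 rose and 8 fell of 36 (median 0.30, 18 and 5 with library size only, 11 and 8 without control 3). EFTUD2, the GTPase that governs remodelling of the U5 particle, was at 39.4, 35.6 and 50.2 CPM in control and 101, 84.5 and 91.4 CPM with microplastics (log2 1.14 ± 0.20, adjusted p = 0.00189). PPIL1, a peptidyl-prolyl isomerase of the active spliceosome, was at 38.3, 29.3 and 24.1 CPM in control and 7.36, 7.25 and 6.88 CPM with microplastics (log2 -2.09 ± 0.23, adjusted p = 0.000125). SF3B4, a branch site protein, was at 626, 733 and 652 CPM in control and 277, 278 and 223 CPM with microplastics (log2 -1.37 ± 0.18, adjusted p = 0.000306). Among SR and hnRNP proteins, which choose splice sites, 7 fell and 1 rose of 31 (median -0.32). Counts were 9 higher and 3 lower with library size only (median -0.31) and 5 and 5 without control 3 (median -0.19). The call that led this list was SRSF7, at 651, 584 and 413 CPM in control and 183, 157 and 196 CPM with microplastics (log2 -1.62 ± 0.21, adjusted p = 0.000311).

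Genes that set the fate of stored mRNA were called in both directions. Among factors of deadenylation and decapping, 3 rose and 5 fell of 31 (11 and 2 with library size only, 4 and 6 without control 3). These are 9.68% and 16.1% of members, near the 9.68% and 14.7% of all genes. CNOT1, the scaffold of the CCR4-NOT deadenylase, was at 20.7, 25.1 and 34.9 CPM in control and 76.2, 65.2 and 71.2 CPM with microplastics (log2 1.40 ± 0.20, adjusted p = 0.000706). It thus rose while BTG4, which recruits that complex, fell. XRN2, a nuclear exonuclease, was at 76.7, 92.02 and 95.05 CPM in control and 141, 135 and 178 CPM with microplastics (log2 0.78 ± 0.17, adjusted p = 0.00614). CNOT9, another subunit of the complex, was at 69.3, 55.97 and 60.7 CPM in control and 27.3, 30.7 and 25.3 CPM with microplastics (log2 -1.16 ± 0.21, adjusted p = 0.00265). In the list of polyadenylation and stored mRNA factors, 4 rose and 2 fell of 38 (15 and 1 with library size only, 8 and 3 without control 3). ZAR1, which organizes stored mRNA in the oocyte, was at 68.5, 62.3 and 72.7 CPM in control and 143, 153 and 109.8 CPM with microplastics (log2 0.996 ± 0.18, adjusted p = 0.00276). TENT2, a cytoplasmic poly(A) polymerase, was at 189, 157 and 144 CPM in control and 68.2, 80.2 and 74.7 CPM with microplastics (log2 -1.14 ± 0.18, adjusted p = 0.00114). MPHOSPH6, a cofactor of the RNA exosome, was at 237, 229 and 226 CPM in control and 59.1, 43.9 and 54.6 CPM with microplastics (log2 -2.13 ± 0.17, adjusted p = 2.16e-05). The microplastics libraries of CNOT1 were all at least 65.2 CPM, and the highest control was control 3 at 34.9 CPM.

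Genes of translation were also called in both directions. Cytosolic ribosomal proteins had 50 of 77 lower and 1 higher at a median of -0.91 (0 and 59 without control 3); 36 of these falls held with each library left out in turn, library size only left 33 lower and 7 higher, and the length trend removed left 31 lower and 3 higher. Summed, they took 1.51%, 1.57% and 1.26% of reads in control and 1.32%, 1.42% and 1.21% with microplastics, shares that overlap between the groups (exact two-sided permutation p = 0.3). These shares are of library totals, without the TMM factors that enter the calls and the median. The factors were 0.835 to 0.972 in control and 1.21 to 1.25 with microplastics, so shares and calls are on different scales. Ribosomal protein genes have many processed copies in the genome, so their counts are uncertain. Initiation factors had 6 higher and 10 lower of 36 (14 and 4 with library size only, 6 and 13 without control 3). EIF4E, which binds the mRNA cap, was at 1924, 1746 and 1512 CPM in control and 578, 476 and 458 CPM with microplastics (log2 -1.78 ± 0.17, adjusted p = 3.95e-05). EIF4G1, the scaffold that joins EIF4E to the ribosome, was at 9.75, 10.9 and 13.3 CPM in control and 20.6, 24.7 and 27.3 CPM with microplastics (log2 1.09 ± 0.23, adjusted p = 0.00526). The cap-binding partner fell and its scaffold rose. EIF3E was at 1846, 1704 and 1458 CPM in control and 725, 772 and 709.8 CPM with microplastics (log2 -1.18 ± 0.15, adjusted p = 0.000301), and EIF3B, another subunit of the same eIF3 complex, was at 13.6, 16.9 and 18.3 CPM in control and 35.6, 31.9 and 30.5 CPM with microplastics (log2 1.01 ± 0.19, adjusted p = 0.00343).

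Aminoacyl-tRNA synthetases, which charge transfer RNA, had 6 higher and 4 lower of 37 at a median of 0.36 (21 and 3 with library size only, 10 and 6 without control 3), and 2 of the gains and 4 of the falls held with each library left out. GARS1, the glycine enzyme, was at 17.9, 17.7 and 27.6 CPM in control and 45.99, 49.1 and 52.3 CPM with microplastics (log2 1.22 ± 0.24, adjusted p = 0.00418). FARSB, the beta subunit of the phenylalanine enzyme, was at 217, 164 and 182 CPM in control and 67.3, 99.8 and 85.8 CPM with microplastics (log2 -1.16 ± 0.20, adjusted p = 0.00199). In ribosome biogenesis 8 rose and 8 fell of 66 (24 and 2 with library size only, 17 and 8 without control 3), with RRS1 at 10.9, 10.04 and 16.97 CPM in control and 34.7, 27.5 and 37.99 CPM with microplastics (log2 1.40 ± 0.31, adjusted p = 0.00803), and with PNO1, a late factor of the small subunit, at 1244, 1167 and 846 CPM in control and 488, 543 and 505 CPM with microplastics (log2 -1.08 ± 0.18, adjusted p = 0.00177). Here too the members that rose were the longer and less abundant ones, with a median of 2723 nt and 21.6 CPM against 1369 nt and 77.6 CPM for those that fell.

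Genes of protein folding and decay were called in both directions. Heat shock proteins and their partners had 8 members higher and 5 lower of 47 (median 0.26, 25 and 2 with library size only, 14 and 6 without control 3). HSPH1, an HSP110 exchange factor that speeds the HSP70 cycle, was at 31.4, 39.9 and 58.8 CPM in control and 129, 93.4 and 113 CPM with microplastics (log2 1.36 ± 0.24, adjusted p = 0.00212). BAG6, a chaperone for membrane and misfolded proteins, was at 10.8, 10.5 and 16.4 CPM in control and 27.5, 28.5 and 32.2 CPM with microplastics (log2 1.23 ± 0.23, adjusted p = 0.0032). HSPA14, a ribosome-bound HSP70, was at 199, 229 and 143 CPM in control and 70.2, 80.2 and 79.1 CPM with microplastics (log2 -1.31 ± 0.23, adjusted p = 0.00183). Of the unfolded protein and integrated stress response list, 6 rose and 1 fell of 33 (16 and 0 with library size only, 8 and 2 without control 3). EIF2AK1, the heme-regulated kinase that phosphorylates eIF2, was at 94.1, 124 and 139.6 CPM in control and 229.6, 248 and 206 CPM with microplastics (log2 0.94 ± 0.18, adjusted p = 0.00393). ATF4, the transcription factor translated when eIF2 is phosphorylated, was at 25.1, 27.9 and 40.3 CPM in control and 75.3, 64.2 and 83.95 CPM with microplastics (log2 1.26 ± 0.26, adjusted p = 0.00464). Control 3 was the highest control for EIF2AK1, ATF4, HSPH1 and BAG6, below every microplastics library.

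The 20S core of the proteasome had 6 of 14 subunits lower and 1 higher (median -0.52, 1 and 6 without control 3), but library size only left 1 lower and 3 higher. The 19S cap had 4 of 19 lower and 0 higher (median -0.03, 3 and 2 with library size only, 2 and 3 without control 3), with PSMD12 at 391, 288 and 259.5 CPM in control and 103, 90.2 and 120.1 CPM with microplastics (log2 -1.58 ± 0.19, adjusted p = 0.000196). PFDN4, a subunit of prefoldin, which hands actin and tubulin to the chaperonin, was at 342, 407 and 312 CPM in control and 91.8, 67.03 and 53.4 CPM with microplastics (log2 -2.32 ± 0.23, adjusted p = 5.02e-05). CCT7, a subunit of that chaperonin, was at 33.4, 51.2 and 55.1 CPM in control and 75.7, 81.3 and 103 CPM with microplastics (log2 0.90 ± 0.21, adjusted p = 0.00964). In the anaphase-promoting complex, the ligase that ends metaphase, 4 of 20 fell and 1 rose (4 and 4 with library size only, 1 and 5 without control 3). UBE2C, the conjugating enzyme that works with it, was at 827, 696 and 564 CPM in control and 176, 199 and 149.8 CPM with microplastics (log2 -1.99 ± 0.20, adjusted p = 6.09e-05). ANAPC7 was at 8.28, 8.19 and 10.7 CPM in control and 22.98, 22.8 and 27.4 CPM with microplastics (log2 1.43 ± 0.26, adjusted p = 0.00247). All 5 of these calls held with each of the 6 libraries left out.

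Autophagy genes had 7 higher and 7 lower of 39 (20 and 4 with library size only, 12 and 7 without control 3). ATG101, part of the kinase complex that starts autophagosomes, was at 23.5, 17.2 and 20.5 CPM in control and 60.97, 45.7 and 48.6 CPM with microplastics (log2 1.34 ± 0.20, adjusted p = 0.000771). MAP1LC3B, the LC3 protein of the autophagosome membrane, was at 319, 307 and 310.4 CPM in control and 136, 138 and 132 CPM with microplastics (log2 -1.20 ± 0.14, adjusted p = 0.00015). ATG12, the ubiquitin-like conjugate of ATG5, was at 159, 159 and 139 CPM in control and 65.95, 69.7 and 62.1 CPM with microplastics (log2 -1.21 ± 0.17, adjusted p = 0.000657). The list of lysosomal hydrolases had 6 of 36 lower and 1 higher, 16.7% and 2.78% of members (9 and 3 with library size only, 4 and 6 without control 3). Among its falls is a membrane protein of the lysosome that is not a hydrolase. The gene that rose was GUSB, beta-glucuronidase, at 2.78, 3.12 and 3.58 CPM in control and 11.6, 12.1 and 12.4 CPM with microplastics (log2 1.93 ± 0.27, adjusted p = 0.000522). ASAH1, acid ceramidase, was at 169, 112 and 85.6 CPM in control and 40.6, 35.7 and 36.5 CPM with microplastics (log2 -1.70 ± 0.26, adjusted p = 0.000813). The V-ATPase that acidifies lysosomes had 3 members lower and 1 higher of 17 (median -0.41, 3 and 1 with library size only, 1 and 3 without control 3), led by its accessory subunit ATP6AP2 at 407, 323 and 266 CPM in control and 98.5, 88.1 and 101 CPM with microplastics (log2 -1.79 ± 0.24, adjusted p = 0.000416).

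Genes of entry into the secretory pathway had more falls than gains with TMM scaling, and most of their members were not called. Among genes of the ER translocon, signal peptidase and oligosaccharyltransferase, which bring new proteins across the membrane and glycosylate them, 14 of 34 fell and 1 rose at a median of -0.59 (3 and 18 without control 3). The median was -0.77 without control 3 and -0.39 with the length trend removed, and library size only left 6 lower and 6 higher. SEC61G, the small gamma subunit of the channel, was at 311, 356 and 219.8 CPM in control and 62.6, 39.8 and 26.2 CPM with microplastics (log2 -2.79 ± 0.32, adjusted p = 0.00015). SRP9, part of the signal recognition particle, was at 56.5, 42.5 and 36.8 CPM in control and 12.4, 10.7 and 11.8 CPM with microplastics (log2 -1.96 ± 0.21, adjusted p = 9.09e-05). SSR4, of the translocon-associated complex, was at 86.6, 71.4 and 55.5 CPM in control and 22.4, 28.8 and 17.4 CPM with microplastics (log2 -1.64 ± 0.23, adjusted p = 0.000646). Control 3 was the lowest control in all 3 genes and still lay above every microplastics library. GPI anchor synthesis, which follows in the ER, had 9 of 26 lower and 1 higher (median -0.43, -0.48 with the length trend removed, and 5 lower with 5 higher under library size only, 2 and 9 without control 3). PIGX, a subunit of the first mannosyltransferase, was at 140.1, 136 and 144 CPM in control and 30.6, 30.6 and 34.4 CPM with microplastics (log2 -2.13 ± 0.16, adjusted p = 2.16e-05).

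COPI and COPII coats, which carry cargo between ER and Golgi, had 6 members higher and 3 lower of 27 (11 and 1 with library size only, 10 and 3 without control 3). SEC24C, a cargo adaptor of COPII, was at 17.97, 16.3 and 15.3 CPM in control and 31.5, 29.2 and 31.96 CPM with microplastics (log2 0.90 ± 0.19, adjusted p = 0.006), and ARF4, a small GTPase of Golgi traffic, was at 2202, 2024 and 1957 CPM in control and 831, 1071 and 1080 CPM with microplastics (log2 -1.05 ± 0.16, adjusted p = 0.000957). In the endosomal machinery of ESCRT and retromer 3 rose and 7 fell of 40 (11 and 1 with library size only, 6 and 7 without control 3). HGS, which gathers ubiquitinated cargo for ESCRT, was at 5.17, 4.28 and 5.43 CPM in control and 16.2, 14.6 and 13.5 CPM with microplastics (log2 1.57 ± 0.31, adjusted p = 0.00414). SNX3, a sorting nexin of retromer, was at 203, 224 and 204 CPM in control and 44.3, 26.96 and 29.7 CPM with microplastics (log2 -2.65 ± 0.21, adjusted p = 2.16e-05). Tethering complexes had 7 higher and 4 lower of 44, 15.9% and 9.09% of members (12 and 2 with library size only, 9 and 5 without control 3, 4 and 7 with the length trend removed). TRAPPC6B was at 104, 104 and 72.2 CPM in control and 18.8, 16.3 and 13.8 CPM with microplastics (log2 -2.52 ± 0.21, adjusted p = 2.16e-05). The small GTPases of the ARL stem, relatives of ARF4, included 7 lower and 0 higher of 22 (5 and 5 with library size only, 0 and 6 without control 3), led by ARL6IP1, which despite its stem is a membrane protein that binds an ARL, at 1322, 1082 and 777 CPM in control and 299.9, 272 and 293 CPM with microplastics (log2 -1.88 ± 0.21, adjusted p = 0.000115).

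Among the mitochondrial lists, the 2 with the shortest transcripts lay lowest. The nuclear subunits of complex I, which takes electrons from NADH, had 21 of 37 lower and 1 higher at a median of -1.03 (1 and 22 without control 3). This median was -0.34 with the length trend removed, when 8 were lower and 5 higher, and library size only left 10 lower and 7 higher. Its members have a median length of 430 nt. NDUFA6, a small accessory subunit, was at 194, 210.0 and 150.4 CPM in control and 46.9, 38.4 and 46.2 CPM with microplastics (log2 -2.07 ± 0.18, adjusted p = 2.75e-05). NDUFS3, a core subunit, was at 17.8, 16.9 and 15.6 CPM in control and 30.2, 27.6 and 26.9 CPM with microplastics (log2 0.75 ± 0.18, adjusted p = 0.0113) and was the only member that rose. Of mitochondrial ribosomal proteins 21 of 78 fell and 4 rose (median -0.32, -0.01 with the length trend removed, 7 and 26 without control 3). With library size only 16 were higher and 13 lower, at a median less all genes of -0.30. MRPL22 was at 209, 202 and 154 CPM in control and 45.4, 37.6 and 37.1 CPM with microplastics (log2 -2.23 ± 0.18, adjusted p = 2.16e-05).

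Within 1 respiratory complex the subunits went apart. SDHA, the flavoprotein of succinate dehydrogenase, was at 8.39, 11.9 and 12.01 CPM in control and 35.1, 27.3 and 32.3 CPM with microplastics (log2 1.55 ± 0.22, adjusted p = 0.000641). SDHD, its membrane anchor, was at 63.3, 75.8 and 71.9 CPM in control and 17.8, 16.1 and 18.96 CPM with microplastics (log2 -1.995 ± 0.19, adjusted p = 4.37e-05). In the matrix, CS, citrate synthase, was at 4288, 5361 and 3419 CPM in control and 2146, 1424 and 927 CPM with microplastics (log2 -1.54 ± 0.29, adjusted p = 0.00327), with the lowest value in microplastics 3. Over pyruvate oxidation and the citric acid cycle 7 fell and 3 rose of 36 (9 and 4 with library size only, 4 and 7 without control 3). Mitochondrial carriers had 6 lower and 3 higher of 37 (12 and 3 with library size only, 5 and 6 without control 3), and SLC25A31, the germ cell ADP/ATP carrier, was at 456, 384 and 282 CPM in control and 104, 101 and 92.7 CPM with microplastics (log2 -1.92 ± 0.21, adjusted p = 0.000108). TOMM70, an import receptor, was at 63.5, 69.6 and 72.2 CPM in control and 102, 111 and 133 CPM with microplastics (log2 0.75 ± 0.17, adjusted p = 0.00728). DNAJC19, a partner of the import motor, was at 24.3, 32.8 and 27.6 CPM in control and 9.43, 9.20 and 11.7 CPM with microplastics (log2 -1.48 ± 0.22, adjusted p = 0.000693).

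Redox, lipid and nucleotide genes had medians near that of all genes, with calls on both sides. In pentose phosphate and thiol redox 9 fell and 4 rose of 42 (median -0.03, 14 and 6 with library size only, 7 and 10 without control 3). PRDX3, the mitochondrial peroxiredoxin, was at 468, 462 and 361 CPM in control and 117, 111 and 117 CPM with microplastics (log2 -1.90 ± 0.17, adjusted p = 3e-05). TXNRD1, the cytosolic thioredoxin reductase, was at 9.69, 9.83 and 11.6 CPM in control and 27.4, 27.4 and 22.1 CPM with microplastics (log2 1.30 ± 0.26, adjusted p = 0.00436). HMOX2, the constitutive heme oxygenase, was at 8.44, 10.3 and 13.7 CPM in control and 35.96, 30.8 and 28.4 CPM with microplastics (log2 1.55 ± 0.24, adjusted p = 0.00094). In cholesterol synthesis 2 rose and 2 fell of 26 (7 and 2 with library size only, 2 and 4 without control 3). SREBF2, the transcription factor that controls the pathway, was at 47.3, 49.2 and 62.5 CPM in control and 16.04, 13.7 and 13.2 CPM with microplastics (log2 -1.89 ± 0.20, adjusted p = 9.28e-05), and MSMO1, a sterol oxidase of it, was at 986, 950.0 and 729.5 CPM in control and 397, 378 and 328 CPM with microplastics (log2 -1.27 ± 0.19, adjusted p = 0.000748). Peroxisome biogenesis had 4 members lower and 1 higher of 16 (5 and 3 with library size only, 1 and 4 without control 3), with PEX2 at 297, 267 and 176 CPM in control and 89.5, 79.4 and 84.2 CPM with microplastics (log2 -1.55 ± 0.21, adjusted p = 0.000431). In nucleotide and one-carbon metabolism 7 rose and 8 fell of 41 (13 and 5 with library size only, 9 and 10 without control 3), with DHODH, the pyrimidine enzyme of the mitochondrial membrane, at 4.85, 4.70 and 6.39 CPM in control and 11.6, 12.1 and 15.6 CPM with microplastics (log2 1.30 ± 0.24, adjusted p = 0.00263).

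Genes of the kinetochore and the spindle checkpoint act in a cell held at metaphase. Of kinetochore and spindle checkpoint genes 21 of 49 fell and 2 rose, at a median of -0.40. 11 of the falls held with each library left out, and without control 3 the counts were 23 lower and 4 higher. With library size only 8 were lower and 11 higher, at a median less all genes of -0.39. AURKB, the kinase that corrects wrong attachments, was at 722, 626 and 387 CPM in control and 135, 159.7 and 119.7 CPM with microplastics (log2 -2.07 ± 0.24, adjusted p = 0.000174). TRIP13, an ATPase that takes apart checkpoint complexes, was at 1244, 1331 and 908 CPM in control and 358, 401 and 393 CPM with microplastics (log2 -1.60 ± 0.23, adjusted p = 0.000703). CENPK, of the inner kinetochore, was at 328, 291 and 272 CPM in control and 137, 135 and 114 CPM with microplastics (log2 -1.20 ± 0.16, adjusted p = 0.000384). CENPT, an inner kinetochore protein with a longer transcript, was at 6.48, 9.57 and 7.10 CPM in control and 18.8, 17.6 and 15.8 CPM with microplastics (log2 1.17 ± 0.24, adjusted p = 0.00526). The order of the controls differed between these genes, with control 3 lowest for AURKB, TRIP13 and CENPK.

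Regulators of the cell cycle were called in both directions. PLK1, a kinase that promotes mitotic and meiotic entry, was at 41.99, 38.2 and 58.01 CPM in control and 109, 98.1 and 106 CPM with microplastics (log2 1.18 ± 0.21, adjusted p = 0.00213). Cyclins and cell cycle kinases had 7 members higher and 6 lower of 50, 14% and 12% of members (19 and 3 with library size only, 9 and 8 without control 3). The median level was 14.1 CPM for those that rose and 148 CPM for those that fell. Cohesin and condensin genes had 5 higher and 3 lower of 26 (16 and 1 with library size only, 5 and 3 without control 3, 4 and 5 with the length trend removed). NIPBL, which loads cohesin, was at 79.997, 74.5 and 97.7 CPM in control and 149.7, 150.4 and 195 CPM with microplastics (log2 0.97 ± 0.20, adjusted p = 0.00551), and NCAPD2, a condensin subunit, was at 24.5, 22.7 and 21.3 CPM in control and 7.06, 7.61 and 3.47 CPM with microplastics (log2 -1.92 ± 0.29, adjusted p = 0.000832). In DNA replication 7 rose and 11 fell of 49 (16 and 5 with library size only, 10 and 12 without control 3). CDT1, which licenses origins, was at 6.48, 5.39 and 9.10 CPM in control and 25.2, 20.3 and 20.1 CPM with microplastics (log2 1.64 ± 0.29, adjusted p = 0.00228), and GMNN, geminin, its inhibitor, was at 412, 418 and 340.5 CPM in control and 197, 195 and 153 CPM with microplastics (log2 -1.10 ± 0.16, adjusted p = 0.000714). The licensing factor and its inhibitor changed in opposite directions. In DNA repair 10 rose and 12 fell of 72, 13.9% and 16.7% of members (33 and 5 with library size only, 16 and 13 without control 3). RAD50, of the double-strand break sensor, was at 173, 203 and 169.8 CPM in control and 327, 345 and 399.8 CPM with microplastics (log2 0.98 ± 0.21, adjusted p = 0.00616). UBE2T, of the Fanconi pathway, was at 197, 172 and 108 CPM in control and 50.9, 34.6 and 38.3 CPM with microplastics (log2 -1.95 ± 0.26, adjusted p = 0.000431).

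Cytoskeletal and nuclear envelope genes changed in both directions. Kinesins, the motors that mostly walk to microtubule plus ends, had 4 higher and 1 lower of 36 (median 0.27, 17 and 0 with library size only, 8 and 1 without control 3). With the length trend removed 2 were higher and 1 lower, at a median less all genes of 0.10. KIF14 was at 11.8, 10.4 and 17.2 CPM in control and 37.7, 27.5 and 32.3 CPM with microplastics (log2 1.31 ± 0.25, adjusted p = 0.00319). Dynein and dynactin had 5 higher and 7 lower of 28 (13 and 5 with library size only, 6 and 9 without control 3). DYNC2LI1, a light intermediate chain, was at 412, 235 and 154 CPM in control and 69.2, 44.3 and 44.9 CPM with microplastics (log2 -2.34 ± 0.32, adjusted p = 0.00048), with control 1 at more than the other controls. TACC3, a spindle microtubule protein, was at 887, 681 and 1544 CPM in control and 209, 212 and 134 CPM with microplastics (log2 -2.49 ± 0.39, adjusted p = 0.0013), and here control 3 was the highest. Actin regulators had 10 higher and 8 lower of 53 (21 and 3 with library size only, 12 and 8 without control 3). FMNL3, a formin, was at 7.35, 7.19 and 8.77 CPM in control and 29.2, 20.8 and 18.003 CPM with microplastics (log2 1.54 ± 0.25, adjusted p = 0.00127), while DIAPH2, another formin, was at 75.4, 73.4 and 68.3 CPM in control and 24.4, 19.7 and 28.9 CPM with microplastics (log2 -1.57 ± 0.18, adjusted p = 0.000153). SPIRE1, which with a formin builds the actin mesh of the oocyte, was at 44.3, 59.9 and 59.2 CPM in control and 96.1, 102 and 101 CPM with microplastics (log2 0.87 ± 0.17, adjusted p = 0.00323). In the nuclear pore and lamina 5 rose and 11 fell of 41 (15 and 7 with library size only, 9 and 12 without control 3), among them NUP62 of the central channel at 10.7, 13.002 and 14.3 CPM in control and 38.4, 29.9 and 31.2 CPM with microplastics (log2 1.39 ± 0.21, adjusted p = 0.000773) and the membrane protein NDC1 at 169, 149 and 133 CPM in control and 28.1, 25.1 and 15.98 CPM with microplastics (log2 -2.70 ± 0.26, adjusted p = 4.62e-05).

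**Figure D4:**
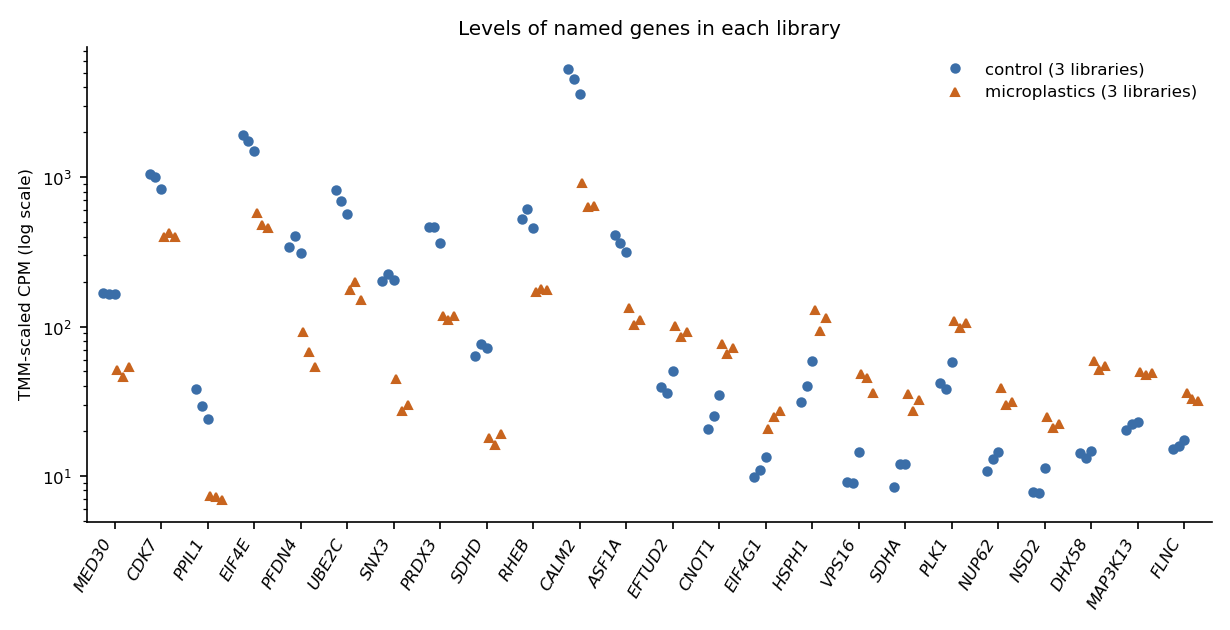
TMM-scaled CPM (log scale) of 24 named genes in each control library (blue circles) and each microplastics library (orange triangles), libraries 1 to 3 from left to right in each group. The 12 genes at the left were lower and the 12 at the right higher with microplastics, the groups do not overlap in any of them because the rule for naming genes asks for this, and control 3 is the highest control in all 12 genes that rose.

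Of the lists of chromatin regulators, histone demethylases and histone and DNA methylation had the highest medians of all lists. Enzymes of histone and DNA methylation had 18 of 52 higher and 4 lower at a median of 0.51, against 9.68% and 14.7% of all genes. The counts were 25 and 4 without control 3, 31 and 1 with library size only and 15 and 4 with the length trend removed, and 5 of the gains held with each library left out in turn. NSD2, a histone methyltransferase of active chromatin, was at 7.79, 7.61 and 11.2 CPM in control and 24.6, 21.02 and 22.1 CPM with microplastics (log2 1.34 ± 0.24, adjusted p = 0.00229). SETDB1, a histone methyltransferase of silenced chromatin, was at 44.9, 52.6 and 48.1 CPM in control and 105, 79.3 and 79.4 CPM with microplastics (log2 0.86 ± 0.17, adjusted p = 0.00415). EZH1, a catalytic subunit of Polycomb, was at 2.18, 2.91 and 2.96 CPM in control and 6.64, 6.88 and 8.19 CPM with microplastics (log2 1.43 ± 0.29, adjusted p = 0.00439). UHRF1, which guides maintenance methylation of DNA, went the other way and was at 3245, 3966 and 3070 CPM in control and 1742, 1850 and 1338 CPM with microplastics (log2 -1.06 ± 0.20, adjusted p = 0.00292).

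Histone demethylases, which remove such marks, had 6 of 21 higher and 0 lower (median 0.52, 13 and 0 with library size only, 9 and 0 without control 3), but with the length trend removed 1 was higher and the median was 0.32. Their median length of 5038 nt is among the longest of all lists. RIOX2, a ribosomal oxygenase listed here with the demethylases, held its call with each library left out, at 29.8, 28.01 and 29.4 CPM in control and 43.2, 48.01 and 59.2 CPM with microplastics (log2 0.79 ± 0.18, adjusted p = 0.0093). Remodellers of the SWI/SNF, ISWI and NuRD families had 12 higher and 8 lower of 56 (median 0.31, 0.17 with the length trend removed, 31 and 3 with library size only, 16 and 10 without control 3). SMARCB1, a core subunit of SWI/SNF, was at 7.41, 7.19 and 10.2 CPM in control and 22.1, 19.6 and 19.95 CPM with microplastics (log2 1.31 ± 0.25, adjusted p = 0.00308). INO80E was at 120.1, 97.5 and 123 CPM in control and 29.96, 45.5 and 38.9 CPM with microplastics (log2 -1.57 ± 0.19, adjusted p = 0.000214). Enzymes of histone acetylation and deacetylation had 11 higher and 3 lower of 50 (23 and 2 with library size only, 14 and 5 without control 3), with SAP130 of the SIN3 complex at 20.97, 22.7 and 37.8 CPM in control and 74.2, 69.5 and 68.999 CPM with microplastics (log2 1.38 ± 0.25, adjusted p = 0.00257). Histones and their chaperones had 5 higher and 7 lower of 36 (14 and 3 with library size only, 8 and 8 without control 3). ASF1A, which hands H3 and H4 to assembly factors, was at 413, 363 and 318 CPM in control and 134, 102 and 111 CPM with microplastics (log2 -1.66 ± 0.18, adjusted p = 0.000107). H3-3B, a gene for a replacement histone that has close copies, was at 4397, 3637 and 2631 CPM in control and 1318, 1578 and 1410 CPM with microplastics (log2 -1.31 ± 0.21, adjusted p = 0.00118).

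Signalling lists mostly had medians above that of all genes. In RAS and MAP kinase pathways 13 of 56 rose and 4 fell (median 0.28, 23 and 2 with library size only, 11 and 6 without control 3). With the length trend removed 6 were higher and 6 lower, at a median less all genes of 0.26. MAP3K13, a kinase upstream of JNK, was at 20.4, 22.1 and 22.8 CPM in control and 49.6, 47.1 and 48.9 CPM with microplastics (log2 1.16 ± 0.17, adjusted p = 0.000703). NF1, neurofibromin, which switches RAS off, was at 3.38, 4.81 and 5.15 CPM in control and 9.77, 12.4 and 12.3 CPM with microplastics (log2 1.37 ± 0.26, adjusted p = 0.00347). DUSP5, a phosphatase induced by ERK that inactivates it, was at 148, 193 and 102 CPM in control and 36.8, 23.4 and 13.998 CPM with microplastics (log2 -2.58 ± 0.39, adjusted p = 0.000897). In the PI3K, AKT and TOR pathway 13 rose and 7 fell of 55 (23 and 3 with library size only, 15 and 8 without control 3), but none of the gains and 3 of the falls held with each library left out. The falls that held were in genes that activate TORC1 on the lysosome. RHEB, its direct activator, was at 523, 617 and 458 CPM in control and 169, 179 and 175 CPM with microplastics (log2 -1.61 ± 0.20, adjusted p = 0.000213). RRAGA, a RAG GTPase, was at 431, 419 and 452 CPM in control and 172, 152 and 161 CPM with microplastics (log2 -1.42 ± 0.15, adjusted p = 8.36e-05). LAMTOR3, of the Ragulator anchor, was at 361, 278 and 253 CPM in control and 78.4, 55.4 and 44.8 CPM with microplastics (log2 -2.32 ± 0.23, adjusted p = 5.86e-05).

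Developmental pathways differed among themselves. In the WNT pathway 8 rose and 4 fell of 45 (20 and 0 with library size only, 13 and 3 without control 3, 6 and 5 with the length trend removed), and 3 gains and 0 falls held with each library left out. AXIN1, the scaffold on which beta-catenin is destroyed, was at 12.5, 12.7 and 13.3 CPM in control and 36.6, 26.99 and 26.5 CPM with microplastics (log2 1.23 ± 0.21, adjusted p = 0.00191). KREMEN1, a receptor that removes WNT co-receptors, was at 2.18, 2.01 and 2.96 CPM in control and 9.58, 10.1 and 9.43 CPM with microplastics (log2 2.02 ± 0.32, adjusted p = 0.00118). In the TGF-beta and BMP pathway, through which oocyte growth factors act, 8 fell and 2 rose of 39 (median -0.01, 6 and 8 without control 3). With library size only 10 were higher and 4 lower, at a median less all genes of 0.01. SMAD2, a signal transducer, was at 336, 312 and 291 CPM in control and 131, 112 and 127 CPM with microplastics (log2 -1.34 ± 0.17, adjusted p = 0.00028). ACVR1, a type I receptor, was at 114, 89.3 and 99.5 CPM in control and 41.1, 45.9 and 28.8 CPM with microplastics (log2 -1.39 ± 0.20, adjusted p = 0.000581). BMP4, a ligand, was at 34.5, 39.4 and 52.3 CPM in control and 13.998, 13.8 and 13.5 CPM with microplastics (log2 -1.61 ± 0.19, adjusted p = 0.000196). These 3 genes are among the falls with the smallest adjusted p, and most members of the list were not called. The Hippo pathway had 6 higher and 2 lower of 26 (median 0.36, 0.12 with the length trend removed, 10 and 1 with library size only, 8 and 2 without control 3), with TAOK1, a kinase at its head, at 3.32, 6.71 and 10.2 CPM in control and 22.04, 17.5 and 24.4 CPM with microplastics (log2 1.65 ± 0.39, adjusted p = 0.011). In Notch and Hedgehog 3 rose and 6 fell of 30 (10 and 4 with library size only, 3 and 8 without control 3). ADAM10, the protease that first cuts NOTCH, was at 30.2, 33.4 and 34.1 CPM in control and 55.2, 56.5 and 67.8 CPM with microplastics (log2 0.88 ± 0.18, adjusted p = 0.00499), and APH1A, a subunit of the gamma-secretase that cuts it next, was at 142, 108 and 107 CPM in control and 24.3, 25.2 and 13.5 CPM with microplastics (log2 -2.50 ± 0.31, adjusted p = 0.000277).

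Second messengers matter in an egg, since cyclic AMP holds meiosis and calcium ends metaphase arrest. In the cyclic AMP list 6 rose and 1 fell of 37 (14 and 0 with library size only, 8 and 1 without control 3). Its median less all genes was 0.15, and 0.005 with the length trend removed, when 3 were higher and 2 lower. PRKAR2A, a regulatory subunit of protein kinase A, was at 5.72, 9.14 and 8.39 CPM in control and 20.4, 20.9 and 28.9 CPM with microplastics (log2 1.59 ± 0.28, adjusted p = 0.0021). PDE8A, which degrades cyclic AMP, was at 16.7, 17.3 and 16.4 CPM in control and 31.96, 36.02 and 34.6 CPM with microplastics (log2 1.02 ± 0.18, adjusted p = 0.0022). Egg calcium signalling had 3 higher and 3 lower of 44 (18 and 2 with library size only, 8 and 3 without control 3). CALM2, a gene for calmodulin, whose 3 copies encode the same protein, was at 5354, 4556 and 3630 CPM in control and 913, 636 and 645 CPM with microplastics (log2 -2.63 ± 0.20, adjusted p = 2.16e-05). CD9, a tetraspanin of the egg surface needed for fusion with sperm, was at 58.5, 58.3 and 32.7 CPM in control and 14.7, 11.8 and 8.93 CPM with microplastics (log2 -2.08 ± 0.39, adjusted p = 0.00316). For phosphatases PP1 and PP2A, 3 rose and 7 fell of 34 (16 and 2 with library size only, 3 and 7 without control 3), and PPP2CB, a catalytic subunit, was at 38.1, 22.6 and 28.7 CPM in control and 6.34, 5.22 and 4.997 CPM with microplastics (log2 -2.43 ± 0.28, adjusted p = 0.000163).

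Genes of RNA sensing, interferon and NF-kB had 0 falls. Of 48 tested members 8 rose at a list median of 0.12. DHX58, STAT2, JAK1 and IFIT2 held with each library left out. TRAF2, TRAF3, TAB2 and NFKBIB (log2 0.96, 1.26, 1.07 and 0.70) each lost their call without control 1 (0.84, 1.05, 0.92 and 0.65), without control 2 (0.93, 1.17, 0.93 and 0.65) and without 1 or more microplastics libraries. These were microplastics 1 for TRAF2 (0.86), 1 and 2 for NFKBIB (0.69 and 0.66), 2 and 3 for TAB2 (1.07 and 0.94) and each of the 3 for TRAF3 (1.37, 1.27 and 1.18). The counts were 13 higher and 0 lower without control 3, 17 and 0 with library size only and 8 and 0 with the length trend removed. DHX58, an RNA helicase that binds double-stranded RNA, was at 14.3, 13.2 and 14.6 CPM in control and 58.6, 50.8 and 54.4 CPM with microplastics (log2 1.96 ± 0.17, adjusted p = 2.96e-05). JAK1, a kinase of interferon receptors, was at 76.7, 80.7 and 83.99 CPM in control and 149.9, 145 and 192 CPM with microplastics (log2 1.01 ± 0.17, adjusted p = 0.00144). STAT2, a transcription factor they activate, was at 4.74, 5.92 and 5.82 CPM in control and 12.8, 12.9 and 14.1 CPM with microplastics (log2 1.27 ± 0.23, adjusted p = 0.00252). The spread within each group was small beside the difference for all 3, which the rule for naming genes favours. The gains of 16.7% of members stand against 9.68% of all genes, and no p-value is given for the list.

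At the cell surface, integrins and focal adhesion genes had 6 higher and 2 lower of 33 (median 0.47, and a median of 0.67 without control 3, 13 and 0 with library size only, 13 and 1 without control 3). FLNC, a filamin that crosslinks actin, was at 15.2, 15.9 and 17.4 CPM in control and 35.8, 32.8 and 31.5 CPM with microplastics (log2 1.05 ± 0.18, adjusted p = 0.00183). ITGB5, an integrin beta chain, was at 6.59, 7.93 and 5.48 CPM in control and 21.3, 15.5 and 15.7 CPM with microplastics (log2 1.39 ± 0.28, adjusted p = 0.00484). Neither fall of this list held with each library left out. In gap and tight junctions and cadherins 7 fell and 1 rose of 28 (10 and 4 with library size only, 4 and 6 without control 3). OCLN, occludin of tight junctions, was at 2053, 1665 and 1632 CPM in control and 840.0, 845 and 829 CPM with microplastics (log2 -1.09 ± 0.18, adjusted p = 0.0014). GJA1, a connexin that is abundant in cumulus cells and is 1 of their markers, was at 26.96, 38.8 and 35.7 CPM in control and 10.6, 13.8 and 13.4 CPM with microplastics (log2 -1.43 ± 0.29, adjusted p = 0.00525). The wider list of cumulus and granulosa genes had 6 lower and 0 higher of 18 at a median of -0.57 (0 and 6 with library size only, 1 and 5 without control 3), with SERPINE2, a secreted protease inhibitor, at 65.9, 38.1 and 34.3 CPM in control and 12.7, 13.99 and 13.01 CPM with microplastics (log2 -1.80 ± 0.29, adjusted p = 0.00124). The part of cumulus RNA in the falls of GJA1 and SERPINE2 was not tested.

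Oocyte genes themselves were not of 1 direction. The list had 8 members higher and 13 lower of 50 (16 and 8 with library size only, 11 and 14 without control 3), and a median of -0.09. Those that fell had a median level of 2535 CPM and a median length of 1573 nt, and those that rose 92.1 CPM and 2371 nt. NLRP13, of the NLRP family of oocyte proteins, was at 17.97, 26.7 and 25.3 CPM in control and 69.99, 45.5 and 54.6 CPM with microplastics (log2 1.28 ± 0.22, adjusted p = 0.00199). TCL1A, an AKT co-activator of the oocyte, was at 116, 174 and 155 CPM in control and 247, 341 and 249 CPM with microplastics (log2 0.91 ± 0.19, adjusted p = 0.00592). SOHLH2, a transcription factor of early oocyte growth, was at 384, 366 and 328 CPM in control and 143, 161 and 189.8 CPM with microplastics (log2 -1.12 ± 0.16, adjusted p = 0.000636).

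Across lists, members that rose and fell differed in the same 2 properties. Of the 48 lists with at least 2 members in each direction, 46 had the higher median level among the members that fell, and 40 had the longer median length among the members that rose. The share of lists is a description, since lists share genes and both properties also go with the direction over all genes. With the length trend removed, 5 lists lay 0.3 or more above the median of all genes and 9 lay 0.3 or more below, against 8 and 14 before. Integrins, aminoacyl-tRNA synthetases and histone and DNA methylation were still above at 0.42, 0.49 and 0.37. The lowest medians of all lists were then those of other cells. Cumulus and granulosa genes lay at -0.64 (5 of 18 lower, 0 higher) and the list of blood markers at -0.52 (1 of 9 lower, 0 higher). Cytosolic ribosomal proteins, the ER translocon list and GPI anchor synthesis were still below at -0.51, -0.39 and -0.48. Whether carry-over of other cells differed between the groups was not tested.

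**Figure D5:**
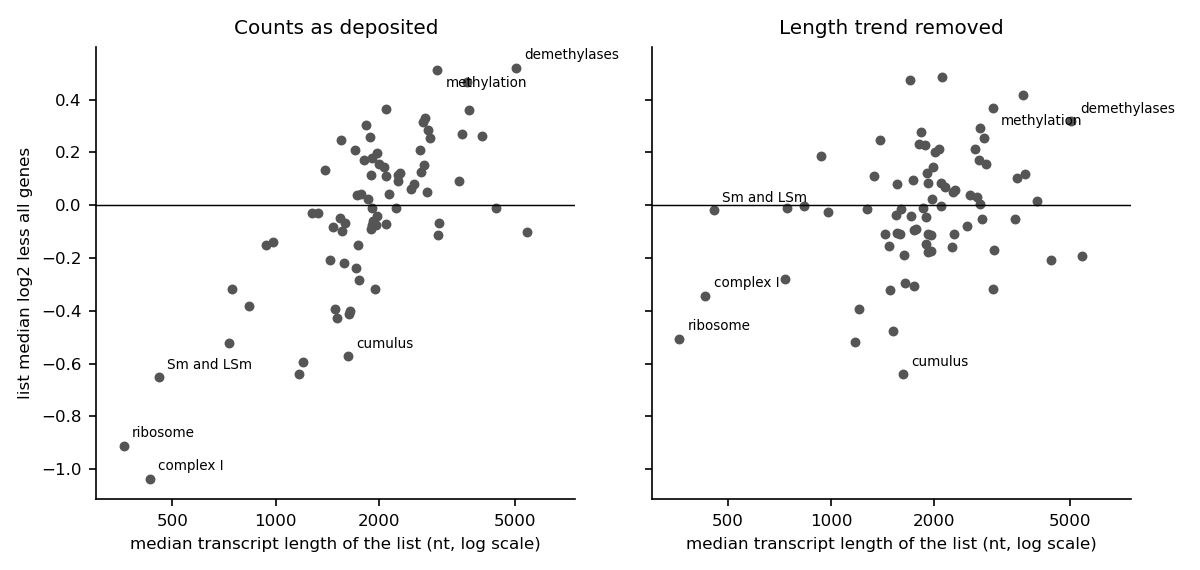
Median log2 difference of each of the 76 lists less that of all genes against the median transcript length of its members (nt, log scale), from the counts as deposited (left) and after a smooth trend on length was removed from each library (right). Lists of short transcripts lie low at the left, and complex I moves from -1.03 to -0.34.

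Grouping genes by the letters that open their symbols, 55 stems with 20 or more tested genes, gave families that the lists do not cover. Zinc finger genes of the ZNF stem, mostly DNA-binding repressors, had 27 of 235 higher and 14 lower (median 0.30, 52 and 13 without control 3, 96 and 5 with library size only, 20 and 16 with the length trend removed). ZNF18 was at 7.68, 8.19 and 6.72 CPM in control and 28.7, 24.1 and 24.2 CPM with microplastics (log2 1.77 ± 0.23, adjusted p = 0.00032). Deubiquitinating enzymes of the USP stem had 11 of 46 higher and 1 lower (median 0.41, 31 and 0 with library size only, 17 and 1 without control 3), with USP7 at 74.9, 81.02 and 101 CPM in control and 170.2, 158 and 205 CPM with microplastics (log2 1.05 ± 0.18, adjusted p = 0.00192). The UBE stem, enzymes of ubiquitin transfer with a median length of 1229 nt, had 13 of 39 lower and 2 higher (median -0.195, 6 and 13 without control 3). With library size only 13 were higher and 7 lower, at a median less all genes of -0.193.

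Solute carriers of the SLC stem had 46 of 237 lower and 16 higher at a median of -0.06 (23 and 46 without control 3). With library size only 57 were higher and 16 lower, at a median less all genes of -0.05. SLC7A3, a carrier of cationic amino acids, was at 2123, 1517 and 1441 CPM in control and 306, 285 and 195 CPM with microplastics (log2 -2.69 ± 0.21, adjusted p = 2.16e-05). SLC1A5, which brings in glutamine, was at 52.6, 70.2 and 81.7 CPM in control and 166, 174 and 171 CPM with microplastics (log2 1.32 ± 0.20, adjusted p = 0.000838). SLC7A3 was high in all controls and fell to between 195 and 306 CPM. The TMEM stem, transmembrane proteins of mixed function, had 46 of 173 lower and 10 higher (median -0.22; 32 and 21 with library size only; 10 and 45 with the length trend removed, 20 and 50 without control 3). TMEM70, an assembly factor of ATP synthase, was at 32.2, 20.98 and 16.8 CPM in control and 3.13, 1.88 and 1.77 CPM with microplastics (log2 -3.36 ± 0.33, adjusted p = 5.02e-05). The RAB stem, named for the GTPases that switch vesicle traffic but taken by symbol alone, had 12 of 57 lower and 4 higher (15 and 6 with library size only, 9 and 12 without control 3), with RAB2B at 499.8, 459 and 389 CPM in control and 131, 114 and 121 CPM with microplastics (log2 -1.88 ± 0.16, adjusted p = 2.45e-05) and RAB24 at 1.91, 1.96 and 1.62 CPM in control and 8.49, 7.14 and 6.02 CPM with microplastics (log2 1.98 ± 0.30, adjusted p = 0.000797). Olfactory receptor genes of the OR stem had 7 of 27 lower and 0 higher (1 and 4 with library size only, 0 and 8 without control 3) and the lowest median of all stems (-1.18), and their close copies make single counts uncertain.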

How the data were processed

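Total RNA of bovine metaphase II oocytes had been extracted with TRIzol and made into libraries by the provider's protocol, per the labels. The authors deposited estimated counts for 22590 transcripts, per the file headers. The deposited file also holds FPKM, which served here only to work out transcript lengths, and TPM and a scaled signal made by the authors, which were not used. For aligner, counting program, build and annotation, nothing is given in the sources used here.

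A gene's value is the rounded sum of its transcripts' deposited estimated counts (17852 genes). Symbols came from a RefSeq gene table (ARS-UCD2.0), which named 95.2% of genes. Genes were tested with edgeR 4.0.16 in R 4.3.3 (quasi-likelihood test, TMM factors, minimum count 10, minimum total 15, 1 coefficient per group over all 9 libraries, Benjamini-Hochberg adjustment), and called at an adjusted p under 0.05. Errors of log2 differences are SE. A floor of 3 counts is 0.132 to 0.142 CPM in these libraries and covers counting error only.

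Lists are described by their counts and median beside those of all genes, with no test of a list. Members and lists were chosen with earlier results of these data known. Named genes are, in each list or symbol stem, up to 3 higher and 3 lower (1 and 1 in stems) with the smallest adjusted p, 5 CPM or more in whichever group is higher and libraries that do not overlap, plus the 6 rises and 6 falls with the largest difference in mean CPM. Of these, values are given mainly for genes whose call held under the alternatives, a choice made after their values were seen. TRAF2, TRAF3, TAB2, NFKBIB and IFIT2 were named outside this rule to complete a list.

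Alternatives were DESeq2 size factors, library size only, no filter, a 5 CPM minimum in 3 libraries, DESeq2 1.42.0 with its Wald test, only the 6 libraries, a replicate block, each library left out, control 3 and taurine 3 left out, a length trend removed, and, chosen after seeing the data, transcripts tested one by one. On counts simulated for this comparison over 12952 genes, the test called 1, 21, 49 and 50 of 50 genes changed by 1.5, 2, 4 and 8 times, with 8 false calls. Classes by chromosome, protein length and promoter were not analysed here, since no genome of the files' build was used. Mitochondrially encoded genes were not analysed here.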

Additional observations from a re-analysis of the deposited data

How the results depend on the processing

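Of 3213 genes called (1278 higher, 1935 lower), scaling by library size only gave 4880, 4004 and 876, so that 82.0% of calls were higher against 39.8%, and leaving out control 3 and taurine 3 gave 5110, with 2613 higher. Leaving out 1 library of any group gave 1715 to 4151 calls, 495 to 2022 higher and 1171 to 2142 lower, with the fewest calls without control 1 and the most without control 3. Transcripts tested one by one gave 852 higher and 1629 lower calls. Same-numbered control and microplastics libraries correlated at 0.05, 0.176 and 0.261 in their deviations. Controls 2 and 3 correlated best with their own number, and control 1 with microplastics 2 (0.087). Whether the numbers mark a shared batch was not tested. A fit with the replicate block called 2417 genes (863 higher, 1554 lower). Splits by chromosome, protein length and promoter CpG were not run. Of 150 genes named, ANKRD17, H1-1, ID3, NFKBIB, PCBP1, TAB2, TMSB4X, TRAF2, TRAF3 and ZP2 lost their call in at least 1 alternative run; holding it was a condition for most of the others to be named.

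Of 1368 list medians under alternatives, 1204 stayed within the SD between libraries. With the length trend removed, medians less all genes became 0.00 for RNA polymerase II, -0.02 for Sm and LSm, -0.17 for SR and hnRNP, 0.49 for aminoacyl-tRNA synthetases, -0.51 for cytosolic ribosomal proteins, -0.28 for the 20S core, -0.19 for the V-ATPase, -0.01 for mitochondrial ribosomal proteins, -0.34 for complex I, 0.17 for remodellers, 0.37 for histone and DNA methylation, 0.32 for demethylases and 0.12 for Hippo. Without control 3 and taurine 3 they were -0.56 for RNA polymerase II, -0.19 for SR and hnRNP, -0.53 for kinetochores, 0.63 for methylation and 0.67 for integrins. At 5 CPM in 3 libraries they were 0.18 for Integrator, 0.21 for aminoacyl-tRNA synthetases, -0.32 for the 20S core, -0.54 for kinetochores and -1.62 for blood markers, and with no filter 0.56 for aminoacyl-tRNA synthetases and 0.24 for Hippo, with fewer or more genes tested. The cause of the other shifts was not tested.

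Leaving out 1 library, medians ranged from -0.56 to -0.35 for RNA polymerase II, -0.45 to -0.24 for general transcription factors, -0.07 (without microplastics 1) to 0.43 for Integrator, -0.79 to -0.57 for Sm and LSm, 0.17 to 0.30 for the spliceosome core, -0.37 to -0.19 for SR and hnRNP, 0.29 to 0.44 for aminoacyl-tRNA synthetases, -1.05 to -0.82 for cytosolic ribosomal proteins, -0.68 to -0.40 for the 20S core, -0.42 to -0.31 for the V-ATPase, -0.77 to -0.52 for the ER translocon list, -0.50 to -0.29 for GPI anchors, -0.49 to -0.11 (without control 1) for mitochondrial ribosomal proteins, -1.10 to -0.63 (without control 1) for complex I, -0.53 to -0.34 for kinetochores, 0.20 to 0.35 for remodellers, 0.36 to 0.64 for methylation, 0.48 to 0.60 for demethylases, 0.23 to 0.42 for Hippo, 0.32 to 0.67 for integrins, -0.69 to -0.46 for cumulus and granulosa genes and -0.76 to -0.01 (without control 2) for blood markers. The difference in reads of the 10 most abundant genes ranged from -5.34 to -4.31 percentage points, and that in genes holding 50 percent of reads from 184 to 226. The differences in percent of reads ranged from -9.41 to -7.44 for genes of 1000 CPM and over, -5.41 to -3.54 for the shortest length class and 3.94 to 4.81 for the longest. In the simulation, where far fewer genes changed than were called in the data, 1 of 50 genes changed by 1.5 times was called. That rate need not hold in the data, where 603 gains and 790 falls lay under 1 on the log2 scale. Genes under 1 CPM have few reads behind them.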

Other observations

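In 12 of 1267 genes with 2 or more tested transcripts, transcripts of the same gene were called in opposite directions when the 15609 transcripts were tested one by one with edgeR. For AFDN, a scaffold of cell junctions, 1 transcript had 0, 0 and 0 estimated reads in the control libraries and 857, 947 and 846 with microplastics, and another had 173, 394 and 293 estimated reads in the control libraries and 0, 0 and 0 with microplastics. SRRM2, a spliceosome scaffold, had a transcript at 743, 574 and 938 estimated reads in the control libraries and 1825, 1870 and 2202 with microplastics, and a second at 42, 125 and 88 estimated reads in the control libraries and 0, 0 and 0 with microplastics. TEAD1, a transcription factor of the Hippo pathway, had a transcript at 468, 492 and 625 estimated reads in the control libraries and 1335, 1315 and 1643 with microplastics, and a second at 106, 85 and 93 estimated reads in the control libraries and 54, 50 and 79 with microplastics. The groups did not overlap for any of these transcripts, and the 3 genes were chosen after their values were seen. Reads of a gene's similar transcripts are divided by estimation in the deposited counts, and the part of that step was not tested.

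At the edge of detection, 9 genes had 3 or fewer reads in each control library and 10 or more in each microplastics library, and 4 genes the reverse. The first set holds CD99, CDH17, GPRASP2, MAN2A2, NGEF, PLXNB2, PODN and SPHK1 and a gene without a symbol, which alone was at 0 in all controls. The second holds A4GALT, KRT18, an epithelial keratin also listed here among cumulus genes, LOC100298356 and a gene without a symbol. At least 10 reads in all 6 libraries were found for 11453 genes (64.2%), and 307 were at 0 in all 6. Genes whose symbol starts with LOC had 77 of 480 lower (16%) and 9 higher (1.88%), against 14.7% and 9.68% of all genes. Genes with 3 or more transcripts in the file had 78 of 982 lower (7.94%) and 134 higher (13.6%). The latter have a median length of 3881 nt, and with the length trend removed 111 were lower and 68 higher.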
